A study of Mus musculus with 98 samples.

Results

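The cell cycle genes of the thymic stroma were followed here as a set of 47 genes, 31 of them with roles in mitosis and 16 with roles in S phase. The members are a list of gene names, and no threshold on a measured value entered the rule. All 47 were present among the 39179 gene rows of the bulk libraries, the 22231 genes of the single-cell age series and the 20760 genes of the newborn single-cell libraries. By role they comprised 7 cyclins and their kinase, 9 genes of replication licensing and the fork, 5 of nucleotide supply, methylation upkeep and base repair, 3 of chromosome structure, 9 of the kinetochore and its checkpoint, 9 of the spindle and its kinases, 2 of the anaphase-promoting complex and 3 of cytokinesis.

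The study comprised 98 libraries. The age series held 8 single-cell libraries of live Ter119-CD45-EpCAM- nonepithelial thymic stroma (NETS) of WT C57BL/6 mice, with 1 library each at E12.5 and E13.5, prepared from pooled thymi, and 2 each at E16.5, birth (P0) and 4 weeks (W4). The newborn set held 6 single-cell libraries of live Ter119-CD45- stroma, thymic epithelial cells (TEC) included, stored in RNAprotect, from 3 Tbx1+/- Crkl+/- mice, which carry a LacZ allele of Tbx1 and a germline null allele of Crkl, and 3 WT littermates. The bulk set held 84 libraries of cells sorted from WT mice at P0 and 4 weeks, 6 per population and age: CD31+ endothelium, Ly51+gp38- mural cells (pericytes and smooth muscle), gp38+CD26+ capsular and gp38+CD26- medulla-enriched fibroblasts, cortical TEC (cTEC) and medullary TEC (mTEC), with mTEChi and mTEClo sorted at 4 weeks alone. Within each bulk group 3 libraries carried the prefix TXCK and 3 the prefix DFCK in their titles, a prefix whose meaning the sources used here do not give.

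A cell that enters the cycle makes cyclin E, loads the Mcm2 to Mcm7 helicase on its replication origins and raises the enzymes that supply deoxynucleotides, and these S-phase genes are known targets of the E2F factors. Genes needed for chromosome condensation, spindle assembly and division are switched on later, in G2 and mitosis, and many depend on the DREAM and MuvB-FoxM1 complexes, which bind a CHR element. In the thymus, the stroma is known to expand as the organ grows and to divide less in the adult.

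The sequences before the start sites of 6 members are shown as examples of the motifs that the E2F and MuvB factors are known to bind, and were picked with their matches known. They are 250 bases from RefSeq (GRCm38.p6), 5′ to 3′ toward the gene, and the capitals mark every match, on either strand, to CHR (TTTGAA, or with another base in the middle TTCGAA), E2F and CCAAT. The letters searched for E2F were TTCCCGC, and besides it the variant TTCGCGC, the variant spelled TTGCCGC, and lastly the one spelled TTGGCGC. Cdk1, Ccnb2 and Cdc20 are mitosis genes.
Cdk1, chr10:69352913-69353162, minus strand: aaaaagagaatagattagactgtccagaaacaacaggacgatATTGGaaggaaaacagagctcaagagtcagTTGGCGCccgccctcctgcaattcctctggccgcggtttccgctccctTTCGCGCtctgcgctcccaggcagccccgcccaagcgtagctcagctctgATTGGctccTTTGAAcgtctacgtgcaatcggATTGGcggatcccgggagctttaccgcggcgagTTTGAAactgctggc
Ccnb2, chr9:70421555-70421804, minus strand: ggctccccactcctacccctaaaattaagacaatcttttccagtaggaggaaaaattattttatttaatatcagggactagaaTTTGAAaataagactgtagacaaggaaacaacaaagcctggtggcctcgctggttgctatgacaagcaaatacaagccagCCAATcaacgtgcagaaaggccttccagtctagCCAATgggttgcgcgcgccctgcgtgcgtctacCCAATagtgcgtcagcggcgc
Cdc20, chr4:118437344-118437593, minus strand: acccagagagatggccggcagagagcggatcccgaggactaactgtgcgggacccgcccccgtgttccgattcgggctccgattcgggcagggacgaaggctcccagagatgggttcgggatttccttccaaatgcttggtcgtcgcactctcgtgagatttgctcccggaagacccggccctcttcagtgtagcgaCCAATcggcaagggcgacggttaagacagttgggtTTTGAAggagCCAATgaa
Mcm5, Mcm6 and Rrm2 are S-phase genes.
Mcm5, chr8:75109259-75109508, plus strand: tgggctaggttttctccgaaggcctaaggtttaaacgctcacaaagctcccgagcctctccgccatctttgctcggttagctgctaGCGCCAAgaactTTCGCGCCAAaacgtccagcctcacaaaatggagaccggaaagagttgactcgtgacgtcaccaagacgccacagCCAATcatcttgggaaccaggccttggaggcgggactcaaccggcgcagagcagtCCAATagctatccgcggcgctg
Mcm6, chr1:128359706-128359955, minus strand: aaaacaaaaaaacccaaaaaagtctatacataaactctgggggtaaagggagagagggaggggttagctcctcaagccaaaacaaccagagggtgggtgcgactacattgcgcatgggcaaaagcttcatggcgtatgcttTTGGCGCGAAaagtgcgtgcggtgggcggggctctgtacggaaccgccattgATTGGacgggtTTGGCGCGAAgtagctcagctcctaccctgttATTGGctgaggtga
Rrm2, chr12:24708004-24708253, plus strand: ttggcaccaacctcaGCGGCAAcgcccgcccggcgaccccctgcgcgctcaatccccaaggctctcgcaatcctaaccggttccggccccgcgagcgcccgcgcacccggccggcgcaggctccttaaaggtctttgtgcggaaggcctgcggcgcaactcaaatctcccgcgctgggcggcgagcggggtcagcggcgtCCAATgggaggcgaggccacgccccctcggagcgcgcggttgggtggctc

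In windows of 300 bases, 250 before to 50 after the start, a CHR match was found in 20 of 27 mitosis genes (74.1%), 2 of 13 S genes (15.4%) and 19.4% of all 27025 genes with a window. An E2F match was found in 6 of the 27 mitosis genes (22.2%), 8 of the 13 S genes (61.5%) and 9.69% of all genes. CCAAT was found in 77.8%, 69.2% and 37.9%, respectively. Among the windows shown, Cdk1 held 2 CHR, 2 E2F and 3 CCAAT matches before its start, Ccnb2 and Cdc20 each held 1 CHR and no E2F match, and Mcm6 held 4 E2F matches and no CHR. Ccna2, Ccne2, Aurkb, Tpx2, Mcm4, Gins2 and Smc4 had no window. Letters of different motifs overlapped in 3 member windows. A match is a description of these letters and not a binding site.

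The age series held 1997 to 6587 cells per library with medians of 10005 to 14031 UMIs per cell, and the newborn set 1687 to 5661 cells with medians of 2391 to 4686 UMIs. Cell barcodes shared between libraries made up 0.4299% and 0.2055% of the barcodes, respectively. Bulk libraries held 5785352 to 15852166 counts on genes, except library S124 of gp38+CD26+ cells at 4 weeks, which held 25702. That library carried 19609 CPM (counts scaled to the same library total) of epithelial markers, 2801 of thymocyte markers and 2724 of fibroblast markers, against 48820 to 54727 CPM of fibroblast markers in the other 5 of its group, so its results are given with and without it. The sorted populations otherwise carried the markers of their labels, with 2657 to 6876 CPM of endothelial markers in CD31+ cells, 29647 CPM or more of mural markers in Ly51+gp38- cells and 16355 to 30096 CPM of epithelial markers in cTEC. Nothing in the labels ties a library to a single mouse, so the p-values below measure the spread between libraries, which may be technical in part.

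Cells with transcripts of the cycle were first counted. For an equal depth, 2000 UMIs were drawn at random from each cell, and a cell was called positive when at least 3 of the 31 mitosis genes had a UMI. This cut is a range and not a cell type, and intervals and limits on it cover counting error only. The authors labelled the proliferating cluster Pr (PrTEC in epithelium) and identified Pr by cell cycle genes, Mki67 among them. The share of positive cells in it thus describes the label, and the shares outside it depend on where the authors' clustering put its border. In all, 4688 cells of the age series were positive, and 71.3% of them carried the Pr label. By library this share went from 33.3% (7 of 21 cells, first W4 library) to 86.4% (second P0 library). Of the cells labelled Pr, 79.7% were positive at E12.5, 82.9% at E13.5, 82.5% and 80.8% at E16.5, 67.1% and 56.6% at P0, and 25% and 60.7% at W4, where each library had 28 such cells. The Pr cells at W4 also carried 731 and 1137 CPM of thymocyte markers, against 22.2 to 123 CPM at E16.5 and P0, with 211 and 13686 CPM of erythroid markers, against 50.1 to 1420, and 37.05 and 323 CPM of epithelial markers, against 6.63 to 20.1.

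Over all NETS, the share of positive cells was 20.1% at E12.5 and 26.8% at E13.5. It was 18.2% and 16.497% in the 2 libraries at E16.5, 7.13% and 4.79% at P0, and 0.826% and 0.740% at W4, so that the libraries of the replicated ages did not overlap. Outside the Pr label the shares were 6.43% at E12.5, 9.90% at E13.5, 7.68% and 5.43% at E16.5, 1.64% and 0.700% at P0, and 0.557% and 0.218% at W4. Without Pr cells, then, each age again lay below the one before it from E16.5 on, with the libraries of P0 and W4 only 0.700% and 0.557% apart at their closest. No test was run on these shares, since they are a score over the members.

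**Figure D1:**
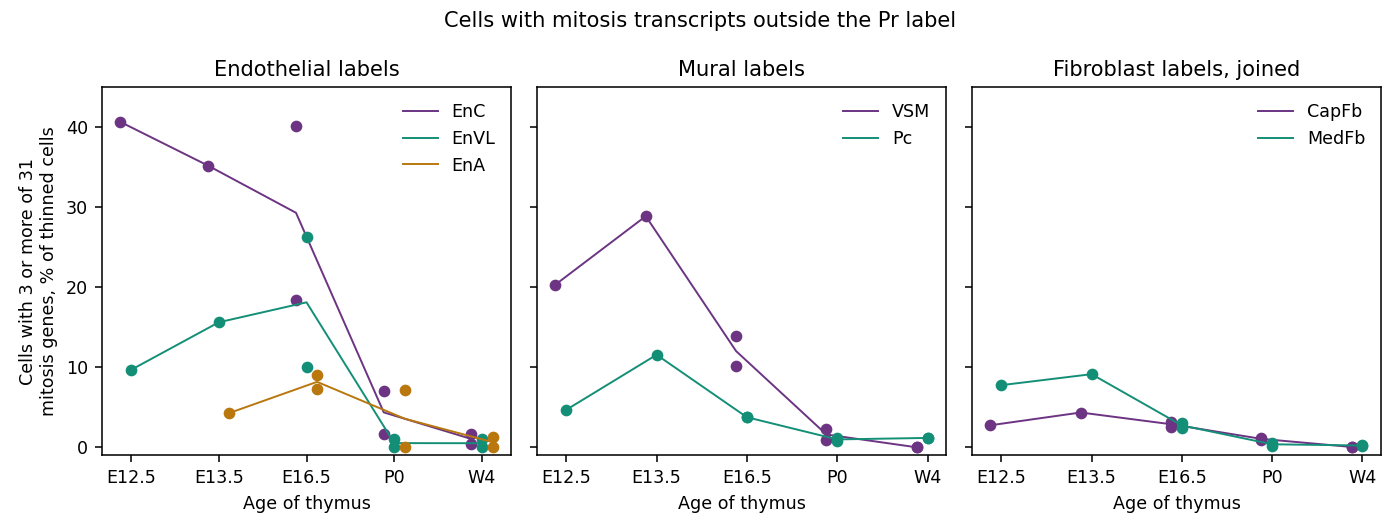
Share of cells with 3 or more of 31 mitosis genes (percent of cells thinned to 2000 UMIs) by age, for endothelial labels (EnC, EnVL, EnA), mural labels (VSM, Pc) and the joined capsular (CapFb) and medullary (MedFb) fibroblast labels. Each point is 1 library and lines join the means. Cells labelled Pr, listed in the paper as proliferating fibroblasts, are left out. EnC stands at 18.5% to 40.7% up to E16.5 and at 0.383% to 7.01% from P0 on, while fibroblasts stay under 10%.

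Capillary endothelium (EnC) had the highest share of the labels outside Pr with at least 20 cells in each of the 4 libraries up to E16.5, though not at P0 and W4. Its share was 40.7% at E12.5 (37 of 91 cells), 35.2% at E13.5, 40.2% and 18.5% at E16.5, 7.01% and 1.72% at P0, and 1.69% and 0.383% at W4 (1 of 261 cells). The 2 libraries at E16.5 lay far apart, and both stayed above every library at P0. Venous and lymphatic endothelium (EnVL) had 26.2% and 10.0% at E16.5 and 1.05% and 0% at P0 (0 of 83 cells, which allows a share of up to 3.61%). Taken as 1 class, endothelium held 58.9% and 40.3% of the positive cells outside Pr at E16.5 while making up 12.8% and 14.0% of those cells. At P0 it held 20% and 8.11% of the positive cells and made up 6.54% and 5.45% of the cells. The paper lists Pr as proliferating fibroblasts in a table. Its text describes proliferating subclusters on paths to capsular and medullary fibroblasts, and also to pericytes and vascular smooth muscle. At E16.5 Pr cells carried 5730 and 6080 CPM of fibroblast markers, 1164 and 1212 CPM of mural markers and 92.0 and 104 CPM of endothelial markers. Mural cells carried 5451 and 6127 CPM of mural markers. Endothelium carried 2624 and 2761 CPM of endothelial markers. Leaving out Pr may thus take out more cycling fibroblasts than cycling endothelium, and cycling mural cells as well. The part of leaving it out in these shares was not tested.

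Vascular smooth muscle (VSM) was positive in 20.3% of cells at E12.5, 28.9% at E13.5, 13.9% and 10.2% at E16.5, 2.23% and 0.971% at P0, and in 0 of 626 cells at W4, which allows a share of up to 0.479%. Pericytes (Pc) had 4.69% at E12.5, 11.6% at E13.5, 3.78% and 3.74% at E16.5, 1.16% and 0.816% at P0, and 1.15% and 1.20% at W4, so that the libraries of P0 and W4 lay within the same range. VSM and pericytes thus ended in the opposite order at W4, at median depths of 6342 and 6386 UMIs per VSM cell and 5108 and 4970 per pericyte. Free RNA can add UMIs to any cell, and its part in these shares was not tested. Any cycling mural cells under the Pr label are not in these shares, and the part of their loss was not tested.

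Fibroblasts outside Pr were seldom positive, with the cells that the paper lists as proliferating fibroblasts left out. Capsular fibroblasts (CapFb labels joined) had 2.76% at E12.5, 4.35% at E13.5, 2.60% and 3.17% at E16.5, 1.22% and 0.892% at P0, and 1 positive cell of 1902 at W4. Medullary fibroblasts (MedFb labels joined) had 7.77% at E12.5, 9.14% at E13.5, 2.43% and 3.03% at E16.5, 0.566% and 0.189% at P0, and 0.318% and 0.132% at W4. Within CapFb at E16.5, CapFb2b had 4.57% and 8.03% and CapFb1b 1.21% and 0.732%, and at P0 CapFb3 had 1.46% and 2.48% against 0.639% and 0.489% in CapFb1b.

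The levels of the members were then compared between ages on UMIs summed per library, with edgeR's quasi-likelihood test and Benjamini-Hochberg adjustment over all genes tested at a threshold of 0.05. The change from E16.5 to P0 and the change from P0 to W4 share the P0 libraries, so their values are set side by side and not correlated. Here and below, counts of members under an alternative mostly have no share of all genes beside them. Such counts show only how far a count moved. Over all NETS, Pr cells included, all 47 members fell in both steps, with a median log2 fold change of -1.49 and then -2.58. Of all genes tested, 14.0% fell in the first step and 24.5% in the second. This includes the loss of cells labelled Pr, which went from 14.1% and 14.7% of cells at E16.5 to 8.40% and 7.33% at P0 and 1.13% and 0.887% at W4.

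Outside Pr, 46 of 47 members fell from E16.5 to P0 and 21 of 47 from P0 to W4, beside 12.6% and 23.0% of all genes tested. The values of mitosis and S-phase genes are given side by side, and neither the difference between the lists nor that between the steps was tested. All 31 mitosis genes fell before birth, with a median log2 change of -2.15, and 7 of 31 fell after it, near the 23.0% of all genes, with a median of -0.89. Of the 16 S genes 15 fell before birth with a median of -0.87, and 14 of 16 after it with a median of -1.69. The median over all genes tested was 0.02 and -0.02. Summed over the list, mitosis transcripts outside Pr stood at 806 and 500 CPM at E16.5, 232 and 176 at P0 and 147 and 112.6 at W4, and S transcripts at 556 and 523, then 368 and 303, then 140 and 126 CPM. The mean of the mitosis sum outside Pr thus fell 3.20-fold and then 1.57-fold, and that of the S sum 1.61-fold and then 2.52-fold. Over all NETS the mitosis sum fell more in the second step. Without the first E16.5 library, 1 member passed from E16.5 to P0, and without the second 20, with all 47 log2 changes below 0 and medians of -1.48 and -2.005. Outside Pr, endothelial markers were 462 to 465.7 CPM at E16.5, 188 to 194 at P0 and 329 to 493.8 at W4, mural markers 1324 to 1510 at E16.5 and 2492 to 2669 at P0, and fibroblast markers 8886 to 9205, then 11952 to 16339, then 18434 to 21389 CPM. Erythroid markers were 356 to 1145 CPM at P0 and 2451 to 3750 at W4. The part of these cell types in these falls was not tested.

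**Figure D2:**
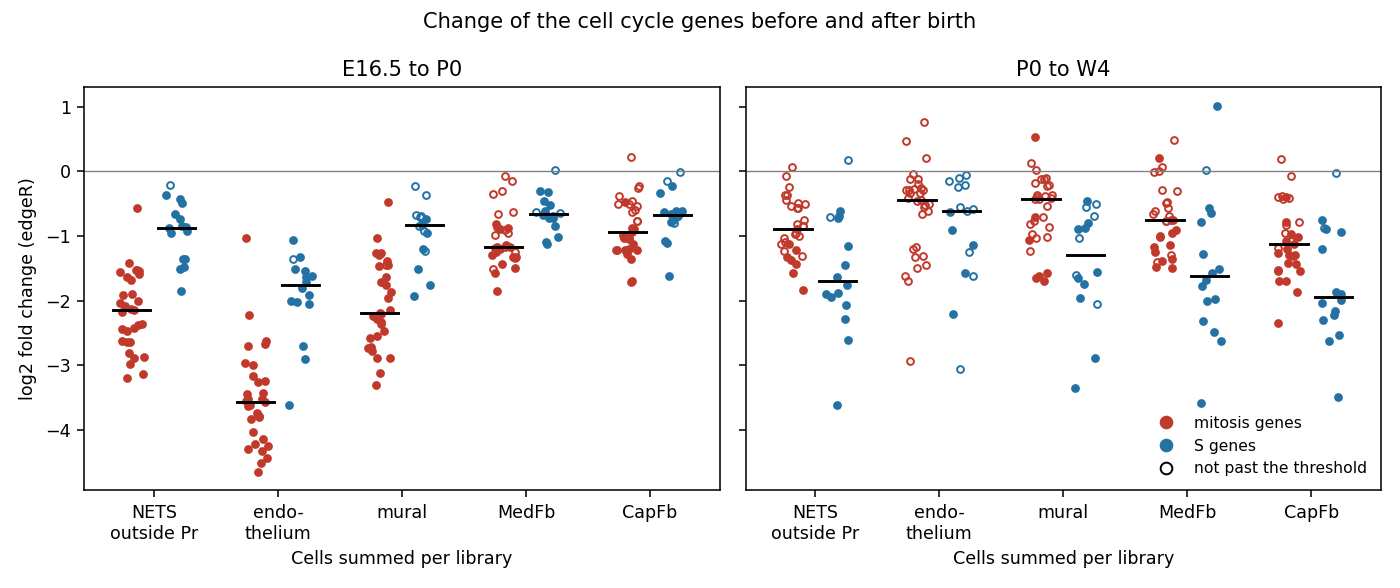
Log2 fold change of each mitosis gene and each S gene from E16.5 to P0 (left) and from P0 to W4 (right), on UMIs summed per library over NETS outside Pr, endothelium, mural cells, MedFb and CapFb. Filled points passed the adjusted p threshold, open points did not, and bars mark medians. In endothelium the mitosis genes lie between -4.66 and -1.02 in the first step, and the S genes of CapFb have a lower median than its mitosis genes in the second.

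Among the mitotic cyclins and their kinase, Cdk1, which drives entry into mitosis, stood at 66.3 and 45.9 CPM at E16.5, 21.4 and 19.5 at P0, and 6.20 and 5.57 at W4 outside Pr. It fell in both steps, with log2 changes of -1.58 and -1.83. Ccnb1, the cyclin B partner of Cdk1, stood at 17.1 and 9.27, then 2.53 and 1.38, then 1.35 and 0.907 CPM. It fell by 2.88 on the log2 scale before birth, while its change of -0.84 after birth did not pass the test. Top2a, which untangles sister chromatids, and Mki67, which coats mitotic chromosomes, fell by 2.09 and 2.18 before birth. After birth Top2a fell by 1.22 and Mki67, at -1.09, did not pass.

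Outside Pr, the kinetochore, spindle and division genes passed the test mainly in the step before birth, whereas with Pr cells included all members passed in both steps. Birc5, a subunit of the chromosomal passenger complex, stood at 50.5 and 28.5 CPM at E16.5, 8.83 and 5.01 at P0, and 4.78 and 2.95 at W4. Plk1, a mitotic kinase, went from 8.98 and 4.44 CPM to 0.960 and 0.708 and then 0.638 and 0.518. Of the 9 kinetochore and checkpoint genes all fell before birth and 2 after it, and of the 9 spindle genes all fell before birth and 1 after it, so that the counts after birth lay at or below the 23.0% of all genes that fell. The largest falls before birth were those of Kif2c (-3.20), Plk1 (-3.13), Ccna2 (-2.98), Ccnb1 (-2.88), Ube2c (-2.87), Bub1 (-2.80), Birc5 (-2.64) and Hmmr (-2.64). Cdc20, which activates the anaphase-promoting complex, fell by 2.14 and then changed by -0.84 without passing. Anln, a scaffold of the cleavage furrow, fell by 1.68 and then changed by -0.50 without passing.

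Of the 9 licensing and fork genes, 8 passed before birth and 8 after it. Cdc6 was the one that did not pass after birth, at 0.18, and it fell by 1.36 before it. Mcm5, a helicase subunit, stood at 36.3 and 34.6 CPM at E16.5, 22.7 and 17.2 at P0, and 4.61 and 3.76 at W4, with log2 changes of -0.96 and -2.29. All 6 Mcm subunits measured (Mcm2 to Mcm7) fell in both steps. Ccne1, the cyclin of S-phase entry, fell by 0.37 before birth and by 3.62 after it, and Gins2, a part of the replicative helicase, fell by 0.66 and 2.60. Rrm2, the regulated subunit of ribonucleotide reductase, went the other way, with a fall of 1.84 before birth and a change of -0.71 after it that did not pass. Pcna, the replication clamp, did not pass before birth, at 28.9 and 27.5 CPM against 27.9 and 25.1, and fell by 0.72 after it. Pcna was the single member outside Pr that did not pass from E16.5 to P0.

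In endothelium 46 of 47 members fell from E16.5 to P0, beside 16.8% of all genes tested, with a median log2 change of -3.24, and Ccne1, at -1.35, did not pass. Kif11, a spindle motor, fell by 4.66, Ccna2 by 4.52, Ube2c by 4.44, Plk1 by 4.32 and Birc5 by 4.30. From P0 to W4, 5 of 47 members (10.6%) fell in endothelium, a share no higher than the 12.7% of all genes tested that fell. They were Mcm2 (-0.90), Mcm4 (-0.63), Mcm5 (-1.15), Gins2 (-2.20) and Ung (-1.57), the uracil-DNA glycosylase. The mitosis sum of endothelium was 3353 and 1104 CPM at E16.5, 333 and 267 at P0 and 275 and 172.4 at W4. Without the second P0 library 27 members passed before birth, and after birth the count was 1 and 2 without the first or second W4 library and 14 without either E16.5 library. Without a filter on low counts 16 changed after birth. Hemoglobin and other erythroid markers in endothelium were 3543 and 3693 CPM at E16.5, 107.3 and 16727 at P0 and 11577 and 21907 at W4. Of the 7 marker lists, 6 were higher at P0 than at E16.5 without overlap, among them fibroblast markers, at 178.6 and 705 against 1272 and 1712 CPM, and the endothelial markers themselves, at 2624 and 2761 against 3018 and 3077 CPM. From P0 to W4 thymocyte markers went from 39.05 and 65.4 to 139.4 and 220.1 CPM. The part of these cell types in these results was not tested.

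In mural cells (Pc and VSM joined, Pr left out), 37 of 47 members fell from E16.5 to P0, beside 8.03% of all genes. From P0 to W4 16 fell, beside 17.4% of all genes. Cenpa, the centromeric histone, rose after birth by 0.53, when 16.3% of all genes rose. In bulk Ly51+gp38- mural cells, from which cells of the Pr kind were not removed, Cenpa fell over the same ages (below). The counts were 19 and 20 before birth without either E16.5 library, and after birth 29 members changed without the second P0 library and 7 and 8 without either W4 library. In capsular fibroblasts 30 members fell before birth and 34 after it, beside 11.7% and 24.7% of all genes. Those before birth went to 7 and 6 without either E16.5 library. In medullary fibroblasts 31 of 46 tested fell before birth, beside 13.0% of all genes, and 25 after it, beside 25.9%. Cdc6, which loads the helicase, rose there by 1.02 after birth and Smc4, a condensin subunit, by 0.21, when 26.8% of all genes rose. The count before birth in medullary fibroblasts was 19 without the second E16.5 and 20 without the second P0 library. DESeq2 gave 14 there, beside 5.07% of all genes. Before birth, erythroid markers went from 553 and 983 CPM to 256 and 350 in capsular and from 111.7 and 254 to 70.1 and 80.9 in medullary fibroblasts, and in mural cells from 80.9 and 338 up to 857 and 905. Endothelial markers went from 30 and 30.4 to 15.2 and 16.6 CPM in capsular fibroblasts, from 121 and 128 to 58.9 and 59.7 in medullary fibroblasts and from 120.03 and 121.04 to 44.4 and 56.9 in mural cells, without overlap in each. Fibroblast markers in mural cells went from 1267 and 1327 to 1644 and 2900 CPM. After birth, erythroid markers went from 256 and 350 CPM at P0 to 1117 and 2309 at W4 in capsular, from 70.1 and 80.9 to 1410 and 1459 in medullary fibroblasts, and from 857 and 905 to 1507 and 4758 in mural cells. Thymocyte markers outside Pr were 26.4 and 30.8 CPM at E16.5, 33.2 and 61.6 at P0 and 88.6 and 181.6 at W4. The part of these cell types was not tested.

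In each of these 3 classes, which leave out Pr, the largest falls before birth were mainly those of mitosis genes. The largest after it were mainly those of S genes. These orders depend on the border of the Pr label, whose part was not tested. Over all NETS, Pr included, the sums of both lists fell more after birth. In mural cells, Kif2c (-3.31), Ccnb2 (-3.12), Plk1 (-2.90), Hmmr (-2.89), Ccnb1 (-2.78), Bub1 (-2.73), Ccna2 (-2.72) and Ube2c (-2.58) led before birth, and Ccne1 (-3.36), Gins2 (-2.90), Mcm5 (-1.97), Mcm3 (-1.74), Kif23 (-1.69), Uhrf1 (-1.66), Cenpe (-1.64) and Cdk1 (-1.63) after it. The 10 members that did not pass in mural cells before birth were Ttk, a checkpoint kinase, and 9 S genes, namely Ccne2, Mcm2, Mcm3, Mcm5, Mcm7, Pcna, Gins2, Cdc6 and Ung. In capsular fibroblasts Kif2c (-1.72), Ccnb2 (-1.70), Ccne2 (-1.62), Birc5 (-1.35), Aurkb (-1.27), Plk1 (-1.22), Ccna2 (-1.22) and Tpx2 (-1.21) led before birth, and Ccne1 (-3.49), Mcm5 (-2.63), Gins2 (-2.53), Cdk1 (-2.35), Mcm2 (-2.29), Uhrf1 (-2.23), Ccne2 (-2.16) and Ung (-2.03) after it. In medullary fibroblasts Ccnb2 (-1.84), Ccna2 (-1.57), Hmmr (-1.50), Birc5 (-1.44), Ccnb1 (-1.34), Plk1 (-1.33), Aurkb (-1.33) and Anln (-1.30) led before birth, and Ccne1 (-3.59), Mcm5 (-2.62), Gins2 (-2.49), Ung (-2.32), Mcm3 (-2.01), Mcm2 (-1.98), Ccne2 (-1.77) and Mcm4 (-1.68) after it. Whether the step before birth differed from the one after it was not tested.

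Other parts of the cycle outside Pr were taken from further lists, which were chosen with earlier results of these data known. Of all genes tested outside Pr, 9.49% rose before birth and 21.9% after it, beside the 12.6% and 23.0% that fell. Of 10 cell cycle inhibitors, 3 rose and 2 fell before birth, and 7 rose and 1 fell after it. Cdkn1c, the p57 inhibitor, fell in both steps, by 1.37 and 2.38, whereas Cdkn1b (p27) rose by 0.79, Rbl2 (p130) by 0.81 and Cdkn2c (p18) by 1.46 after birth. Of 6 G1 cyclins and kinases 3 fell before birth, and after it 5 fell and 1 rose, namely Ccnd1, the cyclin D1 gene, which fell by 1.04 before birth and rose by 0.85 after it. Of 17 regulators of the E2F, MuvB and FoxM1 group, 9 fell and 1 rose before birth and 8 fell and 1 rose after it, with E2f1 at -0.80 and then -0.83. Of 16 other growth-linked transcripts 14 fell before birth and 15 after it, with Dut, which keeps uracil out of DNA, at -0.63 and -0.93.

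The bulk libraries gave a second measurement of WT mice at P0 and 4 weeks, in which cells of the kind labelled Pr were not removed. In sorted bulk cells, fewer cycling cells and fewer transcripts per cell cannot be told apart. The paper assigned the gp38+ gates to capsule and medulla in mice of 4 weeks, where the gp38+CD26- gate also held capsular CapFb1 cells. It reports that gp38+CD26+ cells grew in frequency after E13.5. Whether the mix of cells in these gates changed between P0 and 4 weeks was not tested. Members fell in CD31+, Ly51+gp38- and gp38+CD26- cells and in mTEC, and rose in cTEC, each by a larger share than all genes, whereas in gp38+CD26+ cells 4.44% of members fell, near the 3.41% of all genes, and without library S124 13.3%, beside 5.93% of all genes.

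**Figure D3:**
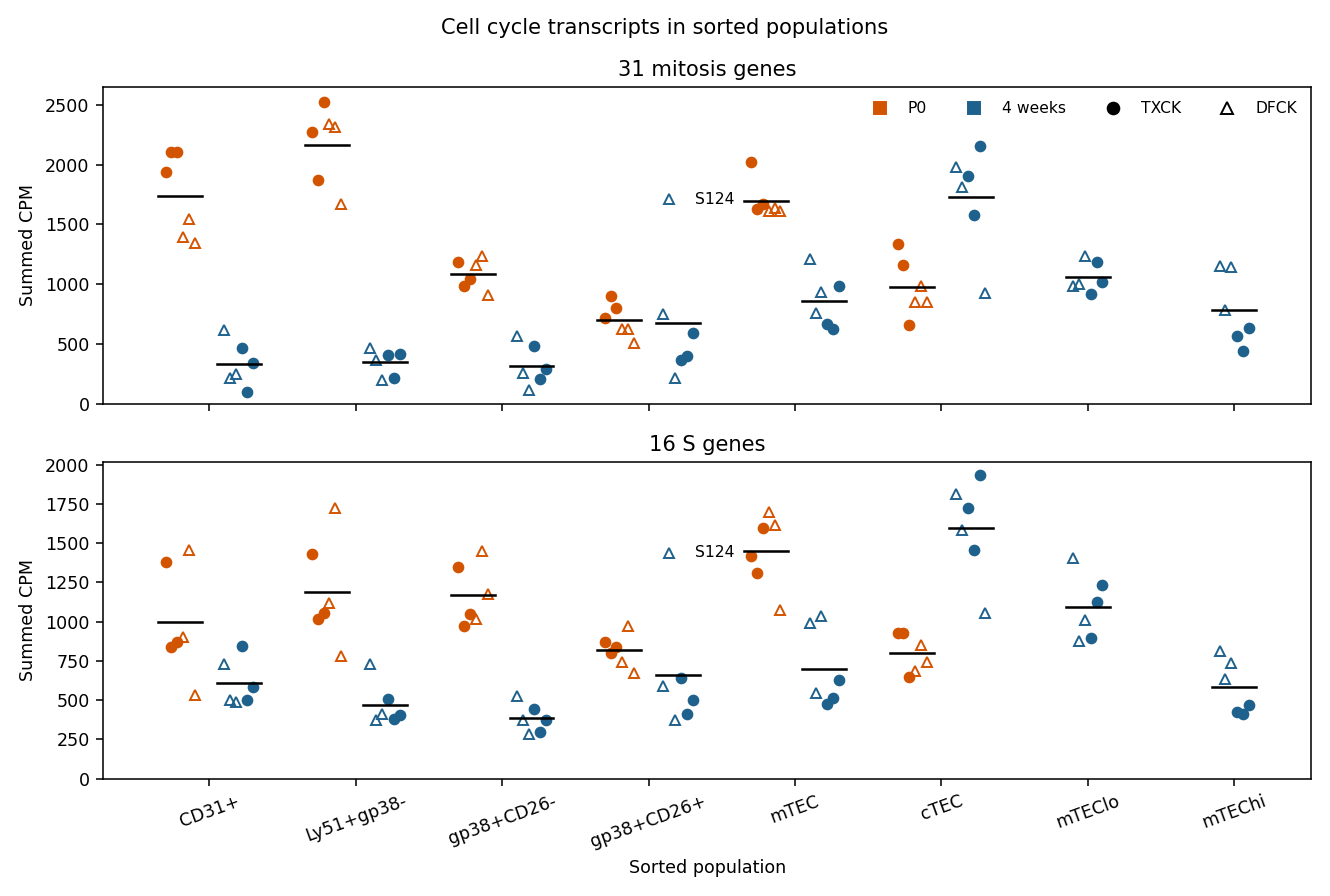
Summed CPM of the 31 mitosis genes (top) and the 16 S genes (bottom) in each sorted bulk library, by population, at P0 and 4 weeks. Circles are TXCK and triangles DFCK libraries, bars mark means of 6, and S124 is the library with 25702 counts. At 4 weeks the CD31+ and Ly51+gp38- mitosis sums reach at most 620 CPM, below every P0 library of the same population. By contrast, 5 of 6 cTEC libraries at 4 weeks lie above every cTEC library at P0 in the mitosis sum.

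In Ly51+gp38- mural cells the mitosis sum had its lowest, median and highest library at 1672, 2294 and 2527 CPM at P0 and at 196, 386 and 464 CPM at 4 weeks, with no overlap between the ages. The S sum went from 780, 1086 and 1728 CPM to 373, 406 and 727 CPM. Of 47 members 18 fell and none rose, beside 5.45% of all genes tested that fell, with a median log2 change of -2.23 over the members and -0.05 over all genes. Ccnb1 stood at 118, 172.5 and 242 CPM at P0 and at 0, 7.58 and 40.6 CPM at 4 weeks, and fell by 3.74 ± 0.82. Here and below, the value after ± is an approximate SE, the log2 change divided by the square root of edgeR's F statistic. Plk1 fell by 3.22 ± 0.92, Ccnb2 by 3.17 ± 0.53, Cdk1 by 2.96 ± 0.76, Tacc3, a spindle protein, by 2.88 ± 0.41, Top2a by 2.82 ± 0.44, Kif11 by 2.58 ± 0.76 and Cenpa by 2.32 ± 0.33. Cdc20, Anln and Rrm2 also fell, whereas Mki67, Birc5, Mcm5 and Pcna did not pass. Mural markers in these libraries were 29647 to 39707 CPM at P0 and 87745 to 113562 CPM at 4 weeks, and fibroblast markers 3197 to 10353 and 1813 to 5168 CPM. Epithelial markers went from 7.43 to 203 CPM at P0 to 280 to 1330 at 4 weeks, thymocyte markers from 5.47 to 29.96 to 109 to 478, and erythroid markers from at most 1.76 to 3.47 to 420 CPM. The part of these cell types in the result was not tested. Within the TXCK libraries 9 members changed and within the DFCK libraries 5.

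In CD31+ endothelium the mitosis sum was 1341, 1740 and 2103 CPM (lowest, median and highest) at P0 and 94.1, 294 and 620 CPM at 4 weeks, again without overlap. The S sum overlapped between the ages, at 535, 889 and 1460 against 490, 541 and 845 CPM. Of 46 members tested 5 fell, beside 1.91% of all genes tested, and all were mitosis genes. Birc5 stood at 17.4, 48.8 and 98.7 CPM at P0 and at 2.23, 5.97 and 10.3 CPM at 4 weeks, a fall of 3.14 ± 0.48 (adjusted p = 0.00116, edgeR). Cenpa fell by 3.04 ± 0.49, Ccnb2 by 2.83 ± 0.75, Ccna2 by 2.58 ± 0.59 and Cdk1 by 1.91 ± 0.48. Over all 46 members tested the median was -2.19, and Mki67, Top2a, Ccnb1, Plk1, Cdc20, Anln, Mcm5, Pcna and Rrm2 did not pass. At an unadjusted p under 0.05 there were 22, with no share of all genes set beside them, so nothing is read from that count. With 3 libraries a group, 0 members changed within TXCK and 2 within DFCK, and 13 fell by DESeq2, 20 in a fit over all 84 libraries and 3 without a filter on low counts. These counts too have no share of all genes beside them, and nothing is read from them. Mural markers were 42.2 to 147 CPM at P0 and 635 to 1807 at 4 weeks in these libraries and erythroid markers 5.97 to 258 and 231 to 6107 CPM, and their part was not tested.

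The gp38+CD26- fibroblasts had the most members that passed with a fall, but counts from separate fits do not rank the size of the falls. The mean mitosis sum fell 3.40-fold here, against 6.29-fold in Ly51+gp38- and 5.24-fold in CD31+ cells. The mitosis sum was 907, 1101 and 1234 CPM at P0 and 118, 272 and 564 CPM at 4 weeks, and the S sum 971, 1112 and 1453 against 281, 375 and 527 CPM, with no overlap in either. Here 24 of 47 members fell, beside 11.5% of all genes tested, 13 of them mitosis genes and 11 S genes. Mcm7 stood at 79.5, 104 and 128 CPM at P0 and at 13.0, 21.8 and 32.9 CPM at 4 weeks, and fell by 2.10 ± 0.22 (adjusted p = 9.64e-06, edgeR). Rrm2 fell by 2.92 ± 0.42, Aurkb, the kinase of the passenger complex, by 3.58 ± 1.11, Cenpe and Kif11, both mitotic motors, by 3.24 ± 1.08 and 3.22 ± 0.99, and Uhrf1, which copies DNA methylation, by 2.90 ± 0.87. Ccne1 (-2.83), Nusap1 (-2.50), Mcm5 (-2.48), Top2a (-2.40), Plk1 (-1.91), Ccnb1 (-1.86) and Cdk1 (-1.04) fell as well, whereas Mki67, Cdc20, Birc5, Anln and Pcna did not pass. TXCK and DFCK libraries alone each gave 12. Erythroid markers were at most 1.80 CPM at P0 and 20.2 to 2647 CPM at 4 weeks in these libraries, fibroblast markers 24316 to 37807 and 30447 to 36056 CPM, and their part was not tested.

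In gp38+CD26+ capsular fibroblasts the mitosis sum was 506, 673 and 903 CPM at P0 and 215, 493.2 and 1712 CPM at 4 weeks, and the highest value was that of S124. Of 45 members tested 2 fell (4.44%), near the 3.41% of all genes tested that fell: Cdk1 by 1.47 ± 0.42 and Ccne2, a cyclin E gene, by 1.74 ± 0.44. Without S124 the count was 6 of 45 (13.3%), beside 5.93% of all genes tested without it, and DESeq2 with S124 gave 5. Also without S124, the sum at 4 weeks was 215 to 750 CPM, and the S sum, 373 to 642 CPM at 4 weeks, no longer overlapped with its 672 to 970 CPM at P0. Of the representatives, Mki67, Top2a, Ccnb1, Plk1, Cdc20, Birc5, Anln, Mcm5, Pcna and Rrm2 did not pass. Erythroid markers were 0.265 to 9.34 CPM at P0 and 584 to 2376 CPM at 4 weeks and epithelial markers 3.68 to 58.1 and 94.9 to 19609 CPM (at most 228 without S124), and their part was not tested.

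**Figure D4:**
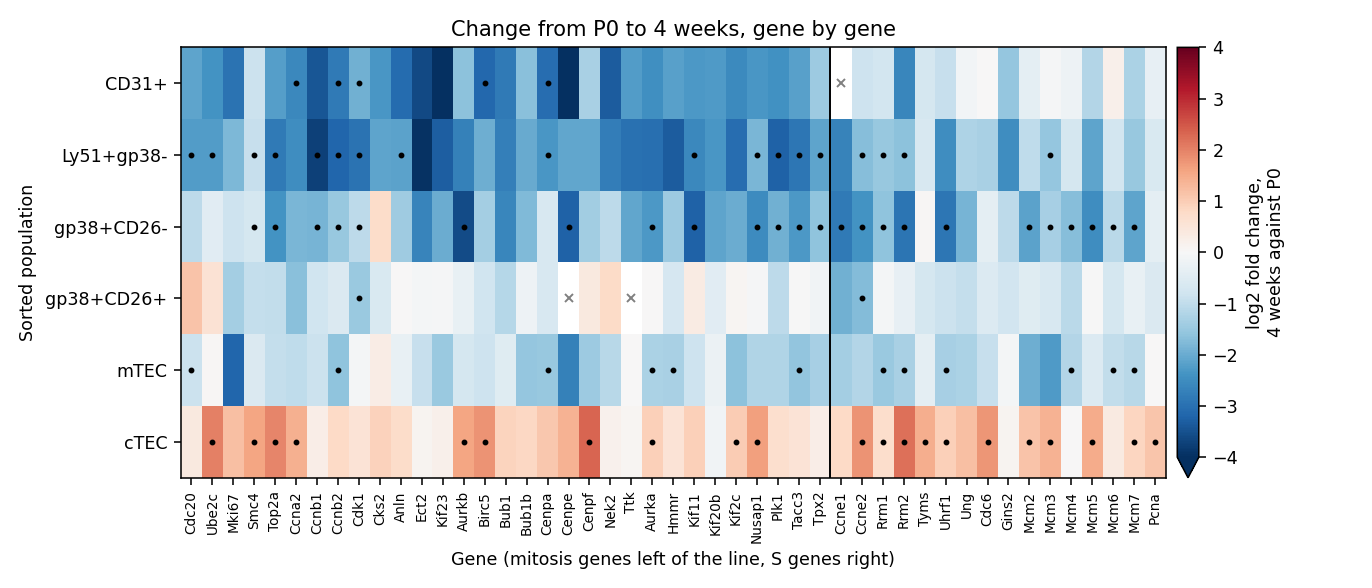
Log2 fold change of each member from P0 to 4 weeks (colour, which ends at -4 and 4) in the 6 sorted populations, with mitosis genes left of the line and S genes right of it. Dots mark members past the adjusted p threshold and crosses members not tested. The cTEC row has 21 dots, all higher at 4 weeks, and every dot in the other rows is lower.

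Cortical TEC went the opposite way. The S sum was 648, 797 and 929 CPM at P0 and 1055, 1654 and 1934 CPM at 4 weeks, without overlap, and the mitosis sum 656, 920 and 1340 against 927, 1860 and 2156 CPM. Of 47 members 21 rose and none fell, beside 12.3% of all genes tested that rose, and the median log2 change was 0.95 over the members and 0.005 over all genes. Rrm2 stood at 48.8, 79.3 and 109 CPM at P0 and at 169, 329 and 472 CPM at 4 weeks, a rise of 2.19 ± 0.24 (adjusted p = 2.74e-05, edgeR). Cenpf, a kinetochore protein, rose by 2.32 ± 0.75, Ube2c, the ubiquitin-conjugating enzyme of anaphase, by 2.01 ± 0.50, Top2a by 1.95 ± 0.32, Birc5 by 1.80 ± 0.32, Ccne2 by 1.80 ± 0.46, Cdc6 by 1.75 ± 0.54 and Nusap1 by 1.63 ± 0.40. Mcm5 rose by 1.47 and Pcna by 1.10, whereas Mki67, Cdk1, Ccnb1, Plk1, Cdc20 and Anln did not pass.

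Thymocyte markers moved with this rise. The 13 thymocyte markers summed to 31.01 to 63.1 CPM in cTEC at P0 and 604 to 2691 CPM at 4 weeks, and for 13 of the 13 every library at 4 weeks lay above every library at P0. Rag1, which recombines the antigen receptor genes in thymocytes, had its lowest, median and highest library at 4.76, 7.12 and 13.9 CPM at P0 and at 102, 215 and 394 CPM at 4 weeks. The 4-week library with the fewest thymocyte marker transcripts, S98 with 604 CPM, also had the lowest mitosis sum, 927 CPM, which lay within the range at P0, and the lowest S sum, 1055 CPM, which lay above it. Other markers were also higher at 4 weeks without overlap, with fibroblast markers at 164 to 376 CPM at P0 and 434 to 2220 at 4 weeks, mural markers at 88.6 to 191.6 and 242 to 823, endothelial markers at most 0.969 and 11.5 to 84.7, and erythroid markers at most 1.65 and 25.9 to 1116 CPM. The part of these cell types in the cTEC result was not tested. Within TXCK 12 members changed and within DFCK 5, and 7 in a fit over all 84 libraries.

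In mTEC 12 of 47 members fell and none rose, beside 2.35% of all genes tested that fell, with a median log2 change of -1.12. The mitosis sum was 1608, 1634 and 2025 CPM at P0 and 621, 849 and 1207 CPM at 4 weeks, and the S sum 1077, 1508 and 1698 against 472, 587 and 1035 CPM, without overlap in either. Ccnb2 fell by 1.60 ± 0.29, Tacc3 by 1.58 ± 0.32, Rrm1, the large subunit of ribonucleotide reductase, by 1.49 ± 0.25, Uhrf1 by 1.33 ± 0.29, Rrm2 by 1.29 ± 0.31, Hmmr by 1.29 ± 0.25 and Aurka, a spindle pole kinase, by 1.26 ± 0.32. Cenpa fell as well, with a change of -1.503 ± 0.27, as did Cdc20, with -0.85, whereas Mki67, Top2a, Cdk1, Ccnb1, Plk1, Birc5, Anln, Mcm5 and Pcna did not pass. Erythroid markers were 14.8 to 50.2 CPM at P0 and 455 to 3657 at 4 weeks, and macrophage and dendritic markers 269.5 to 375 and 380 to 601 CPM, and their part was not tested. Within TXCK 13 members changed and within DFCK 0, and 6 in a fit over all 84 libraries.

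At 4 weeks, 5 of 47 members (10.6%) were lower in mTEChi than in mTEClo, beside 6.24% of all genes tested, and the count was 5 within TXCK and 0 within DFCK libraries. Mcm7 stood at 59.5, 116 and 140 CPM in mTEClo and at 12.8, 32.3 and 48.8 CPM in mTEChi, a difference of -1.52 ± 0.33. Mcm6 differed by -1.36, Mcm3 by -1.38, Mcm2 by -1.31 and Ccnb2 by -1.54. The S sums did not overlap, at 875 to 1403 CPM in mTEClo and 411 to 814 CPM in mTEChi, whereas the mitosis sums did, at 921 to 1234 and 436 to 1156 CPM. None of the 11 representative members passed. Of the 7 marker lists 4 did not overlap. Macrophage and dendritic markers were 42.8 to 297 CPM in mTEClo and 567.8 to 721 in mTEChi, thymocyte markers at most 67.9 and 69.9 to 112.7, epithelial markers 8671 to 11068 and 5138 to 6436, and mural markers 2668 to 4511 and 1754 to 2243 CPM. Their part was not tested.

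Whether the change with age differed between the 6 populations was tested as an interaction over 72 libraries. It did for 26 of 47 members, beside 20% of all genes tested. The smallest adjusted p values (edgeR) were those of Cenpa (3.46e-07), Rrm2 (5.21e-07), Birc5 (4.93e-06), Top2a (3.22e-05) and Rrm1 (0.000119). Rrm2 fell by 2.92 in gp38+CD26- cells and rose by 2.19 in cTEC, and Birc5 fell by 3.14 in CD31+ cells and rose by 1.80 in cTEC. The test does not say which population differs from which. Like the comparison of mTEChi with mTEClo, it treated the libraries as independent. Several populations may have been sorted from the same mice, which the labels do not give. The interaction test gave 13 members within TXCK and 6 within DFCK.

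The newborn libraries allowed the same count in epithelium and between genotypes. In the 3 WT libraries 8.69%, 10.4% and 10.0% of NETS were positive and 11.3%, 10.97% and 10.3% of TEC. Outside the proliferating labels the WT shares were 3.14%, 4.54% and 4.10% in NETS and 6.50%, 5.59% and 4.52% in TEC. Thinning to 2000 UMIs kept 65.0% to 89.9% of newborn cells and 99.1% to 99.9% of cells of the age series, so the shares of the sets are not compared. EnC had the highest WT shares of the NETS labels outside Pr, at 10.4%, 12.2% and 13.3%, against 2.20% to 2.31% in CapFb. In the age series EnC was the highest at E16.5 but not at P0, the age of the newborn set.

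Among WT TEC labels, mature mTEC (MmTEC) had 13.51%, 9.64% and 7.08% of cells positive and intertypical TEC (ItTEC) 10.0%, 13.3% and 6.82%. Perinatal cTEC (PcTEC) had 6.33%, 4.66% and 4.03% and mature cTEC (McTEC) 2.99%, 1.03% and 2.46%. MmTEC and ItTEC overlapped, whereas every PcTEC library lay below every MmTEC and ItTEC library and above every McTEC library. WT PrTEC cells were positive in 88.2% to 94.7%, as their label implies. Over the 6 newborn libraries of both genotypes, erythroid markers ranged from 0 to 18088.5 CPM in PrTEC and from 7.37 to 295 CPM in TEC outside PrTEC. The part of erythroid transcripts in the epithelial results was not tested. Thymocytes (Thy), cells that the gate had not removed, were positive in 16.7% and 21.7% of cells in the 2 WT libraries with at least 20 of them.

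**Figure D5:**
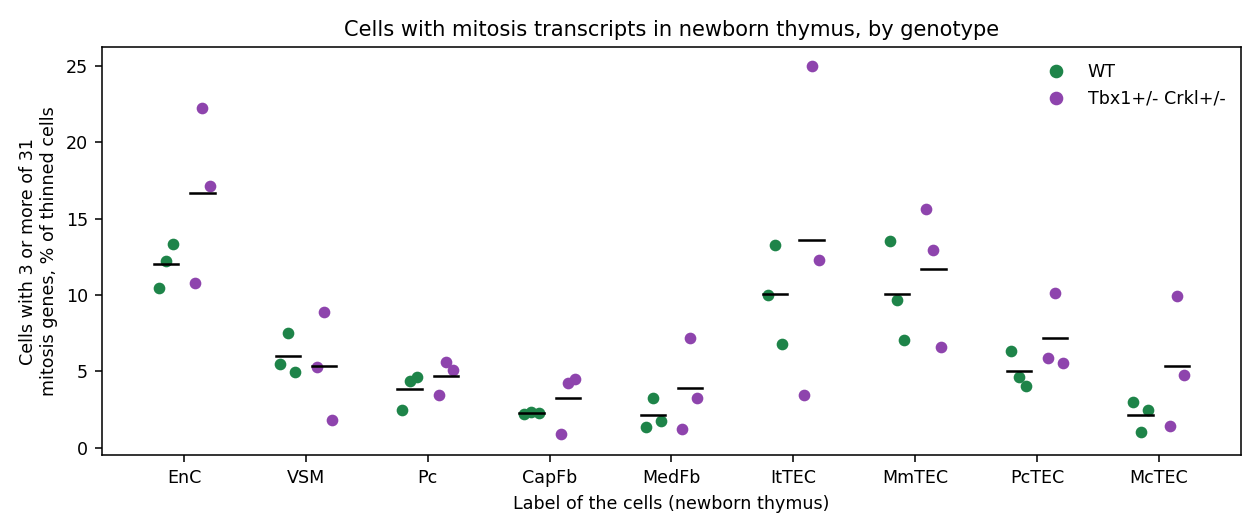
Share of cells with 3 or more of 31 mitosis genes (percent of cells thinned to 2000 UMIs) in newborn thymus by label, for 3 WT and 3 Tbx1+/- Crkl+/- libraries. Points are libraries and bars means. The genotypes overlap in each of the 9 labels drawn, with the widest spread in Tbx1+/- Crkl+/- ItTEC, from 3.45% to 25%.

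Between the genotypes no member passed in any of the 5 cell sets tested. With edgeR, 0 of 47 members passed in NETS, 0 of 44 in NETS outside Pr, 0 of 47 in TEC, 0 of 44 in TEC outside PrTEC and 0 of 40 in PrTEC, beside 0% of all genes in the first 4 and 0.162% in PrTEC. At an unadjusted p under 0.05 there were 3, 6, 0, 1 and 1 members, respectively. No share of all genes is set beside these counts, and nothing is read from them. DESeq2 gave 0 in 4 of the sets and 1, Top2a, in NETS outside Pr. Top2a stood at 33.8, 35.9 and 49.9 CPM in Tbx1+/- Crkl+/- NETS outside Pr and at 21.7, 18.7 and 18.9 CPM in WT, without overlap, a difference of 0.97 ± 0.19 (adjusted p = 0.173 with edgeR). Over 10 alternatives the adjusted p of Top2a ranged from 0.00492, with edgeR on every gene with at least 1 count, to 0.537, without the second WT library, and was 0.0270 with DESeq2. Of the other representatives there, Ccnb1 stood at 4.89 to 15.8 CPM against 5.61 to 7.10 and Birc5 at 15.1 to 22.1 against 11.5 to 12.45, and neither passed.

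The mitosis sum in NETS outside Pr was 433, 543 and 558 CPM in Tbx1+/- Crkl+/- and 406, 426 and 368 CPM in WT, and the S sum 263, 245 and 267 against 273, 277 and 249 CPM. Shares of positive cells outside Pr were 3.46%, 7.28% and 5.33% in Tbx1+/- Crkl+/- and overlapped with those of WT. Of 27 cell sets with at least 2 libraries of each genotype, joined classes included, the shares overlapped in all but 3, which were higher in Tbx1+/- Crkl+/-. With so few libraries of each genotype, some sets separate by chance, and joined sets share cells with their parts. Depth moved with genotype, at medians of 2391 to 2551 UMIs per cell in Tbx1+/- Crkl+/- and 2577 to 4686 in WT, and thinning kept 64.96% to 72.8% and 72.4% to 89.9% of cells. Without thinning all 3 sets overlapped, and the mean shares outside Pr were 8.50% in Tbx1+/- Crkl+/- and 10.4% in WT, the opposite order to that after thinning. Under a cut of 2 genes endothelium and MedFb2a overlapped. At 4000 UMIs MedFb2a overlapped, at 6.06% to 7.69% in Tbx1+/- Crkl+/- and 3.03% to 6.41% in WT. At that depth endothelium had only 1 Tbx1+/- Crkl+/- library with enough cells, and MedFb1a could not be compared. The part of depth was not tested. After thinning to 2000 UMIs, endothelium, its labels joined, was positive in 11.1% to 16.9% of cells in the 3 Tbx1+/- Crkl+/- libraries (10 to 41 positive cells) and in 7.83% to 10.4% in the 3 WT libraries (9 to 42), and no test was run on these shares. Its labels EnC (10.8% to 22.2% against 10.4% to 13.3% in WT) and EnVL (2.38% to 5.66% against 4% to 6.06%) overlapped between the genotypes. MedFb2a had 2.13%, 4.72% and 3.12% (1 to 6 positive cells) against 0.980%, 1.34% and 0.769% (1 or 2), and MedFb1a 12.7% and 7.89% (7 and 3 positive cells) against 2.78%, 2.5% and 2.74%. In TEC outside PrTEC they were 5.92%, 12.9% and 6.01%, and the second library, the highest, was also the highest in ItTEC (25%), PcTEC (10.1%) and McTEC (9.95%). Epithelial markers in NETS outside Pr were 646 to 1266 CPM in Tbx1+/- Crkl+/- and 473 to 635 CPM in WT, against 7.01 to 51.4 CPM from E12.5 to W4 in the age series. Fibroblast markers in the same set were 4666 to 6398 CPM in Tbx1+/- Crkl+/- and 6729 to 8969 in WT, erythroid markers 67.1 to 255 and 18.1 to 52.4, mural markers 1750 to 1938 and 1958 to 2715, macrophage and dendritic markers 19.7 to 27.9 and 10.4 to 19.4, and endothelial markers 442 to 686 and 355 to 456 CPM. The part of these cell types in these values was not tested.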

How the data were processed

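Single-cell libraries were made with 10x 3′ chemistry and processed with Cell Ranger 3.1.0, and bulk libraries with STAR 2.5.3a and HTSeq, per the labels and the study's methods. The authors deposited whole-number counts, UMIs per gene and cell or reads per gene and library, with no normalization. The submitters' notes name the builds mm10 and GRCh38 without their roles. The methods state that cells with over 1000 genes and under 5% mitochondrial reads were kept, but the deposited newborn cells had as few as 876 genes and those of 1 age-series library as few as 999. No further filter was applied. The authors removed doublets with DoubletFinder, removed Ptprc clusters and named the labels, which were used as deposited. Fewer reads in a shallow library give less precise values, and intervals cover counting error only.

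Samples were grouped by their labels. The 47 members and the other lists were chosen with earlier results of these data known. Cells were thinned to 2000 UMIs with a fixed seed, and cells with fewer were left out. Counts were summed per library and cell set, scaled with TMM and tested with edgeR 4.0.16 (quasi-likelihood, limma 3.58.1, R 4.3.3) within each population or cell set, with Benjamini-Hochberg adjustment over all genes tested. CPM were computed on gene counts, and 98 bulk rows that name no gene, holding 7.81% to 29.4% of counts, were left out. Of 39179 bulk gene IDs 37607 matched a name. Named were 11 representatives, the 8 called members with the largest change per comparison, called members that went against most, members that did not pass where they were 10 or fewer, and at most 4 genes of any other list. Steps were tested on simulated data. Alternatives were another scaling, no filter on low counts, DESeq2 1.42.0, a prefix covariate, single prefixes, 1 fit over all bulk libraries, a replicate block, leaving out each library, and other cuts and depths. Leaving out libraries for the shares, and crossed replicate numbers, were added after seeing the data. Promoter matches were searched in RefSeq windows of GRCm38.p6, whose coordinates were not joined to the count files.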

Additional observations from a re-analysis of the deposited data

Results flagged for a closer look

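The CPM of each of the 11 representative members and the 2 summed levels was tested, within each group of 6 bulk libraries, for a library far from the others by the gap to its nearest neighbour (Dixon's ratio). Of these tests 22, or 12.1%, found one. Chance gives about 1 in 20, but the tests of a group share its libraries and are not independent. Of the 22, 5 were library S124 (gp38+CD26+, 4 weeks), which held 25702 counts. It had a mitosis sum of 1712 CPM against 215 to 750 in the others, an S sum of 1440 against 373 to 642, Mcm5 at 194.5 against 12.7 to 36.5, Rrm2 at 155.6 against 7.47 to 57.7, and Pcna at 0 CPM against 46.6 to 65.2.

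In CD31+ cells, Ccnb1 stood at 333.6 CPM in 1 library at P0 (others 83.8 to 170.7) and at 57.06 in library S182 at 4 weeks (others up to 13.2), in which Plk1 was also the highest at 41.88 (others up to 14.5). At 4 weeks 1 library of Ly51+gp38- cells had Cdk1 at 38.82 (others up to 10.6), another had Ccnb1 at 40.56 (others up to 14.3), and 1 library of gp38+CD26- cells had Ccnb1 at 52.31 (others 8.18 to 21.6). In gp38+CD26+ cells, Top2a stood at 11.06 (others 53.8 to 68.8) and Mcm5 at 0.0883 (others 29.1 to 43.7) in 1 library each at P0, and Plk1 at 28.66 (others up to 9.61) at 4 weeks. Pcna stood at 44.28 in 1 library of gp38+CD26- cells at P0 (others 82.3 to 95.7).

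In mTEC at P0, library S37 had a mitosis sum of 2025 CPM (others 1608 to 1667), and library S46 was low for Cdk1 at 67.14 (others 91.5 to 103.1) and for Rrm2 at 140.9 (others 239 to 291). At 4 weeks, library S113 was high for Cdk1 at 229.9 (others 32.4 to 96.5) and for Pcna at 219.3 (others 64.8 to 101.4), and another mTEC library for Top2a at 101.3 (others 31.6 to 57.3). In mTEClo, Cdc20 stood at 39.51 in 1 library (others 78.1 to 95.5). The change with age differed between the 6 bulk populations for 26 members, by the interaction test.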

How the results depend on the processing

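Of 228 counts of members under an alternative, 44 lay over 1.5 times away from the reported count, and no named gene that passed changed its sign, whereas the order of the genotype shares turned under 1 setting given below. Without a filter on low counts, 3 members changed in CD31+ cells, 1 in gp38+CD26+ cells, 16 in endothelium from P0 to W4 and 1 in newborn NETS outside Pr. DESeq2 gave 13 in CD31+, 5 in gp38+CD26+, 14 in MedFb from E16.5 to P0 and 1 in newborn NETS outside Pr. TXCK libraries alone gave 0 in CD31+, 9 in Ly51+gp38-, 12 in gp38+CD26-, 12 in cTEC and 13 in the interaction. DFCK libraries alone gave 2 in CD31+, 5 in Ly51+gp38-, 0 in gp38+CD26+, 12 in gp38+CD26-, 5 in cTEC, 0 in mTEC, 0 in mTEChi against mTEClo and 6 in the interaction. Fewer libraries entered these fits. One fit over all 84 libraries gave 20 in CD31+, 7 in cTEC and 6 in mTEC. In gp38+CD26+ cells a prefix covariate gave 1, and leaving out S124 gave 6. No share of all genes is set beside these counts, so they show only how far the counts moved. The causes were not tested.

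Same-numbered single-cell libraries did not deviate together throughout, so their numbers were not used as pairs. The r was -0.13 for P0 and W4 over NETS, 0.139 for E16.5 and W4 in endothelium, and 0.164, -0.026 and -0.446 for the 3 newborn pairs over NETS. With so few libraries a group, this cannot exclude shared litters or runs, which the labels do not give. Pairing of the bulk libraries was not tested. At 4 weeks the first-numbered bulk library had the highest mitosis sum in CD31+, gp38+CD26-, Ly51+gp38-, mTEC and mTEChi cells, but not in gp38+CD26+ cells, cTEC or mTEClo. A replicate block gave 36 members outside Pr and 15 in endothelium from P0 to W4, and left the other counts within 1.5 times. Crossed numbers, added after seeing the data, gave 47 in NETS and 23 outside Pr. Leaving out 1 library gave, before and after birth, 36 to 47 and 47 to 47 in NETS, 1 to 46 and 15 to 23 outside Pr, 6 to 37 and 24 to 39 in CapFb, 19 to 40 and 21 to 32 in MedFb, 19 to 47 and 7 to 29 in mural cells, 27 to 47 and 1 to 14 in endothelium, and 0 in all newborn sets. The mean shares then ranged from 16.497% to 18.2% at E16.5, 4.79% to 7.13% at P0 and 0.740% to 0.826% at W4 in NETS, from 5.43% to 7.68%, 0.700% to 1.64% and 0.218% to 0.557% outside Pr, from 4.39% to 6.30% (Tbx1+/- Crkl+/-) and 3.62% to 4.32% (WT) in newborn NETS outside Pr, and from 5.97% to 9.45% and 5.06% to 6.05% in newborn TEC outside PrTEC.

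The level of the shares depended on the cut and the depth. With 2 or more genes the shares, given from the youngest age to the oldest, were 27.6%, 36.4%, 23.9%, 11.4% and 3.53% in NETS and 13.8%, 20.6%, 13.2%, 6.23% and 3.09% outside Pr. At 4000 UMIs they were 28.4%, 37.1%, 23.3%, 9.62% and 1.94%, and 14.7%, 20.4%, 12.1%, 4.13% and 1.41%. Without thinning they were 60.6%, 70.4%, 53.7%, 31.3% and 11.03%, and 51.7%, 61.6%, 46.1%, 26.02% and 10.4%. Without Smc4 and Cks2 those that moved were 24.7% (E13.5), 16.1% (E16.5) and 0.538% (W4) in NETS, and 8.13% (E13.5) and 0.139% (W4) outside Pr. In newborn WT and Tbx1+/- Crkl+/- NETS outside Pr they were 12.9% and 16.3% with 2 genes, 8.30% and 9.24% at 4000 UMIs, 10.4% and 8.50% without thinning, and 2.82% (WT) without Smc4 and Cks2. In TEC outside PrTEC they were 15.96% and 21.1%, 10.3% and 14.0%, 15.4% and 13.53%, and 3.92% (WT). The order of the genotypes turned without thinning, and median depth ranged from 2391 to 4686 UMIs between these libraries.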

Other observations

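In newborn thymus, some labels had few cells. Neural TEC (nTEC) were positive in 27.8% of cells in Tbx1+/- Crkl+/- library 2 and in 6.56% in WT library 3, the only 2 libraries with at least 20 such cells after thinning. Post-AIRE mTEC (PAmTEC) were positive in 26.7% and 0% (0 of 20 cells) in libraries 2 and 3 of Tbx1+/- Crkl+/- and in 18.2% in WT library 3. Thymocytes were positive in 23.9% and 13.3% of cells in libraries 2 and 3 of Tbx1+/- Crkl+/-, which overlapped with WT. In the age series, among libraries with at least 20 such cells, mesothelium (Mes) was positive in 2 of 20 cells at E12.5, 0 of 30 at E13.5, 11 of 228 (4.82%) in the first P0 library, and 1 of 32 and 0 of 157 at W4, and the 2 counts of 0 allow shares of up to 10% and 1.91%. Neural crest (NC) was positive in 4.63% of cells at E12.5, 10.9% at E13.5, and 1 of 39 and 1 of 25 cells at P0.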
